A study of Rattus norvegicus with 9 samples.

Results

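Sclerostin (Sost) and 6 other genes linked to osteocytes were read from the count table of rat fracture libraries: Dmp1, Mepe, Phex, Fgf23, Pdpn and Lrp4. They were chosen by gene symbol among the protein-coding rows and make up 7 of the 35360 genes of the table. All 7 passed the filter on low counts, which left 15460 genes to be tested. Poly-A RNA came from the middle of femoral fractures, in a series on a bone adhesive for osteoporotic fracture repair. The groups were Gel, the gel alone, ALN gel (labelled ALN+Gel), the gel with a bisphosphonate, and Mg-ALN gel (labelled Mg-ALN@Gel), the gel with a metal-organic framework of magnesium and the same bisphosphonate. Each group had 3 libraries, and all groups shared the gel and the fracture. The labels used here give no strain, age, sex, dose or time after fracture, and do not say whether the libraries came from separate animals, so p-values measure only the spread between these libraries. The series' design text names Sost as a gene lowered by magnesium, so the Sost comparisons below are not independent of the study's own choice.

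Osteocytes are the cells that osteoblasts become once they are buried in bone matrix, and they signal to the surface through long processes. Sclerostin, which mature osteocytes secrete, binds the coreceptors Lrp5 and Lrp6 and so blocks Wnt signalling in bone-forming cells; Lrp4 is a membrane protein that binds sclerostin and strengthens this block. Dmp1 and Mepe are acidic matrix proteins of mineralizing bone, Phex is a membrane peptidase whose loss raises Fgf23, and Fgf23 is the hormone that makes the kidney excrete phosphate. Pdpn (podoplanin) marks the early, still embedding osteocyte, and is also made by lymphatic endothelium and other stromal cells.

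Sost lies on the minus strand of chromosome 10, positions 89897087 to 89900131 in the deposited table, whose build is not given in the sources used here. Mepe (6782012 to 6793558) and Dmp1 (6889856 to 6900733) are neighbours on the minus strand of chromosome 14, 96297 bases apart, in the cluster of acidic matrix protein genes. Phex lies on chromosome X (40460047 to 40717982, plus strand), Fgf23 on chromosome 4 (159622404 to 159630082, plus strand), Pdpn on chromosome 5 (161947137 to 161981441, minus strand) and Lrp4 on chromosome 3 (80362858 to 80416679, plus strand). Counts are per whole gene. A small RNA gene lies inside Phex on the same strand, and the other 6 genes overlapped no other gene of the table.

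Promoters of Sost, whose ALN gel libraries lay above all others, and of Mepe, the neighbour of Dmp1 that varied with it, are shown here. Of the 7 genes, 4 were matched in RefSeq's promoter table (build GRCr8), and the windows of these 2 begin at the gene's own start. Each sequence holds the 250 bases before the start. Capitals mark the CCAAT box, whose reverse reads ATTGG, the Runx core TGTGGT and the AP-1 motif TGANTCA, each searched on both strands; none of these matches overlapped another. The coordinates are chr10:87415767-87416016 (minus strand) for Sost and chr14:5736859-5737108 (minus strand) for Mepe.
Sost: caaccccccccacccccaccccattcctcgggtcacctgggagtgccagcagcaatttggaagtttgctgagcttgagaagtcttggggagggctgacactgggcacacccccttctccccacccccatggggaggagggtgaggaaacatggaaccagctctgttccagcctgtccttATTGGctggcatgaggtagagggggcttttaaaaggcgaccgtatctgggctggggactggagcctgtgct
Mepe: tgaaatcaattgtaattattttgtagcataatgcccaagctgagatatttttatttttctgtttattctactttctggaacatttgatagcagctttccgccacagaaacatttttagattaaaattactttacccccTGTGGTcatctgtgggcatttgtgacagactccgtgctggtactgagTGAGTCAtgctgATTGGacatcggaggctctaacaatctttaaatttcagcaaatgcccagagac
The Sost window held 60.4% G and C, and its only match among the 3 capitalised motifs was an ATTGG 71 bases before the start. The Mepe window held 38.0% G and C, with an ATTGG 53 bases, a TGAGTCA 65 bases and a TGTGGT 112 bases before the start. Over all 33469 windows of this length, 34.0% held CCAAT, 14.5% TGTGGT and 6.34% TGANTCA. Neither window held TATAAA, which 12.9% of windows held. The loose E-box pattern CANNTG, not capitalised, occurred 1 time in the Sost and 5 times in the Mepe window, and in 65.5% of all windows. These matches describe the letters only.

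The libraries held 13388689 to 18763270 counts. Libraries of the same gel differed widely (biological coefficient of variation over all genes, 51.4%), and mitochondrial genes took 4.16% to 39.5% of the counts, most in ALN gel library 1. Summed osteoblast markers were present in every library (25477 to 112526 CPM, counts per 1000000 counts of scaled library size), as were osteoclast markers. Skeletal muscle markers reached 9778 CPM in Gel library 3 and 2052 CPM in ALN gel library 1, but were 8.0 CPM in Mg-ALN gel library 3. Because the tissue was sequenced in bulk, fewer osteocytes and less RNA per osteocyte cannot be told apart.

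Per gene length, podoplanin and Dmp1 were the most abundant. The median of the authors' FPKM (fragments per gene length and library depth) over the 9 libraries was 48.9 for Pdpn, 46.7 for Dmp1, 19.8 for Mepe and 8.68 for Lrp4. Phex followed at 1.68, Sost at 1.11 and Fgf23 at 0.460. Fgf23 ranked lowest and exceeded only 8.20% of tested genes, while Pdpn exceeded 91.1%. The ranges of neighbours in this order overlapped, since each gene except Lrp4 varied at least 39.5-fold between its lowest and highest library, Fgf23 from 0 upward. Lrp4 varied 5.38-fold.

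Sost was the member that followed the gels most plainly: it was high in every ALN gel library and low in the others. It reached 9.23, 4.46 and 6.93 CPM in the ALN gel libraries 1 to 3, against 1.85, 0.282 and 0.313 CPM in Gel. The Mg-ALN gel libraries held 0.236, 0.119 and 0.762 CPM. These rest on few reads, 71 to 119 counts per ALN gel library, 5 to 26 in Gel and 2 to 12 in Mg-ALN gel. All 3 ALN gel libraries lay above the other 6, a separation that 3.51% of tested genes also showed. The Gel and Mg-ALN gel libraries overlapped, and Gel library 1 stood above the other 5 of these.

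**Figure D1:**
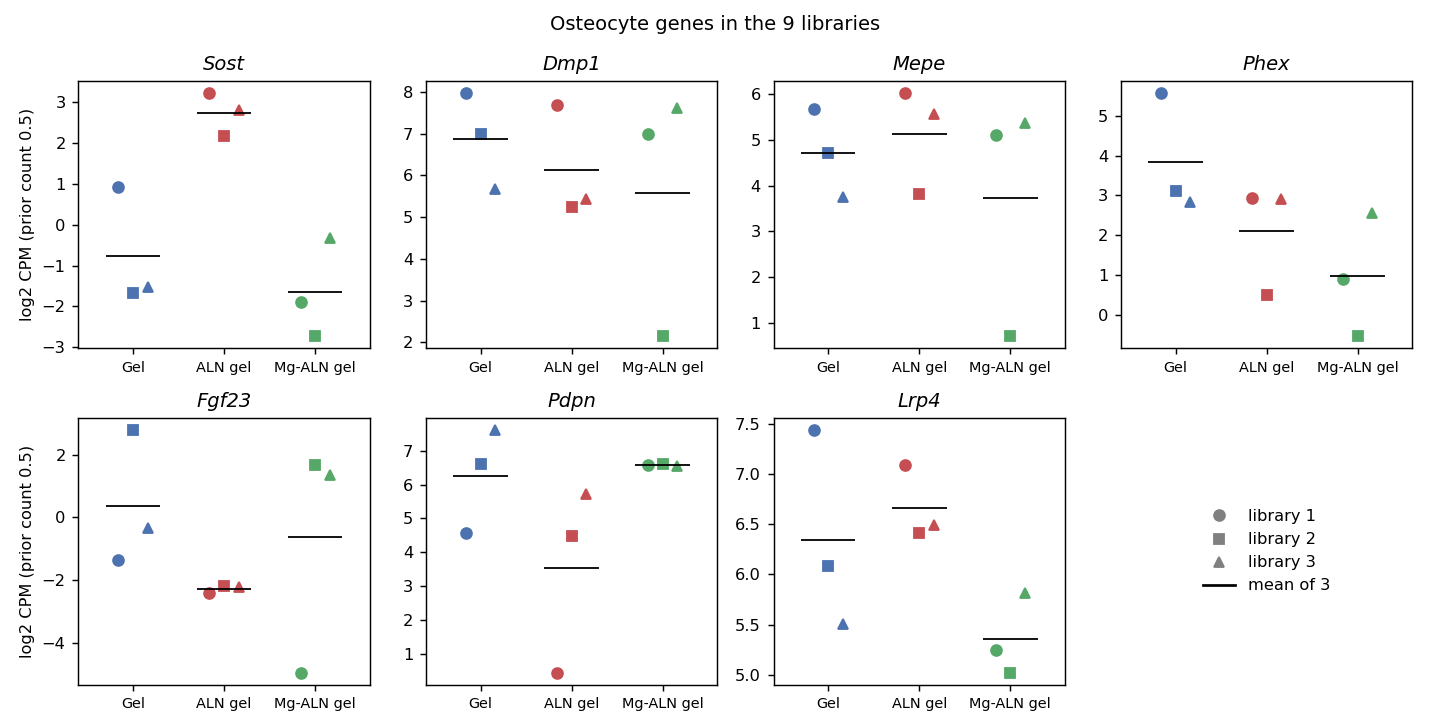
Log2 CPM (vertical axes, prior count 0.5, separate scale for each gene) of the 7 osteocyte genes in the 3 libraries of each gel; symbols give the library number and lines the mean of 3. Sost is highest in the 3 ALN gel libraries, and Mg-ALN gel library 2 is lowest for Sost, Dmp1, Mepe, Phex and Lrp4.

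On the log2 scale Sost was 3.08 (SE 0.92) higher in ALN gel than in Gel, and the Mg-ALN gel value was −4.17 (SE 0.98) relative to ALN gel; both comparisons share the ALN gel libraries. The second was −5.24 without Mg-ALN gel library 3 and −3.70 without Mg-ALN gel library 2. The means were 6.87 ± 2.39 CPM in ALN gel, 0.815 ± 0.897 in Gel and 0.373 ± 0.342 in Mg-ALN gel (SD, n = 3 each). By edgeR's quasi-likelihood test neither difference passed after Benjamini-Hochberg adjustment, with adjusted p = 0.528 and 0.496. No gene passed in any comparison, so 0% of genes was called in each of the 3; before adjustment, a p under 0.05 was reached by 1268 genes for ALN gel against Gel, by 1421 between the bisphosphonate gels and by 1439 for Mg-ALN gel against Gel. Sost ranked 240th by p in the first of these and 59th in the second.

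DESeq2, run as an alternative, called 135, 178 and 51 genes and among them Sost in both contrasts, with adjusted p = 0.0485 and 0.00199. limma-voom with quality weights called 263, 2 and 0 genes, and Sost in ALN gel against Gel only, adjusted p = 0.0397. An exact permutation test over the 280 ways to form 3 groups of 3 gave Sost p = 0.0179, unadjusted, where the smallest possible is 0.00357. The same exact test gave 0.0893 for Phex and Pdpn, 0.125 for Lrp4, 0.475 for Fgf23, 0.693 for Mepe and 0.768 for Dmp1. Pairwise exact tests of 3 against 3 cannot go below 0.1. The pooled counts gave a ratio of 8.90 for ALN gel over Gel (95% counting interval 6.29 to 12.9) and of 17.9 for ALN gel over Mg-ALN gel (11 to 31.1), intervals that cover counting error only.

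Between Mg-ALN gel and the plain gel, Sost did not separate. The log2 difference was −1.09 (SE 0.92), adjusted p = 0.697 by edgeR, and the groups overlapped. It was 0.32 without Gel library 1 and −2.16 without Mg-ALN gel library 3. Without Gel library 1 the ALN gel difference from Gel was 4.49 on the log2 scale, with adjusted p = 0.211.

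Relative to the matrix genes of osteocytes, Sost was again highest in the ALN gel libraries, while Gel and Mg-ALN gel overlapped. Counted against Dmp1 in the same library, Sost came to 44.6, 118 and 161 counts per 1000 Dmp1 counts in ALN gel. It came to 7.38, 2.23 and 6.11 in Gel and to 1.87, 27.0 and 3.88 with Mg-ALN. Every ALN gel library was above every other library, the nearest being Mg-ALN gel library 2, which held only 74 Dmp1 and 2 Sost counts. Against Mepe the Sost ratios were 142, 316 and 147 per 1000 for ALN gel, 36.0, 10.8 and 23.1 for Gel, and 6.88, 74.1 and 18.5 for Mg-ALN gel. Here too the 3 ALN gel libraries were the highest.

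**Figure D2:**
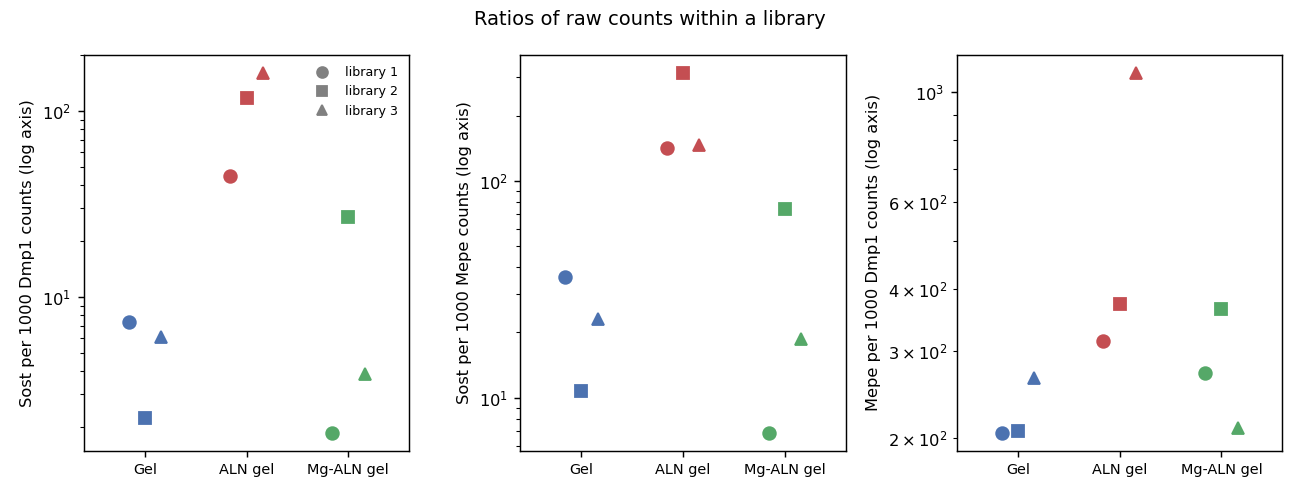
Ratios of raw counts within each library (log axes, by gel): Sost per 1000 Dmp1, Sost per 1000 Mepe and Mepe per 1000 Dmp1 counts. The 3 ALN gel libraries lie above all others for Sost against both genes, from 44.6 to 161 per 1000 Dmp1, while Mepe against Dmp1 overlaps between gels.

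Dmp1 and Mepe, the matrix proteins of the osteocyte, varied several-fold within each gel. Dmp1 was 251, 127 and 51.3 CPM in Gel, 207, 37.8 and 43.1 CPM with ALN, and 127, 4.41 and 196 CPM with Mg-ALN. The 3 gels overlapped throughout, and Mg-ALN gel library 2 was far below the rest. The log2 differences were −0.58 (SE 1.12) for ALN gel against Gel, 0.19 (SE 1.12) between the bisphosphonate gels (Mg-ALN gel minus ALN gel), and −0.39 (SE 1.12) for Mg-ALN gel against Gel. Each of the 3 turned direction when 1 library was left out, among them Gel library 1 (0.10 in the first and 0.29 in the third) and Mg-ALN gel library 3 (−0.55 in the second).

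Mepe was 51.4, 26.2 and 13.5 CPM in Gel, 65.1, 14.1 and 47.2 CPM with ALN, and 34.4, 1.61 and 41.1 CPM with Mg-ALN. Again the gels overlapped and Mg-ALN gel library 2 was lowest. Its log2 differences were 0.47 (SE 0.96), −0.71 (SE 0.96) and −0.24 (SE 0.96) in the same order. Single libraries moved all 3: the first lay between 0.016 (ALN gel library 1 left out) and 1.08 (Gel library 1 left out), and the second between −1.23 (without Mg-ALN gel library 3) and −0.11 (without Mg-ALN gel library 2). The last became 0.36 without Gel library 1 and 0.31 without Mg-ALN gel library 2. Mepe counts stood at 205 to 373 per 1000 Dmp1 counts in 8 libraries and at 1095 in ALN gel library 3, where Mepe was 47.2 CPM and Dmp1 43.1 CPM.

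Dmp1 and Mepe were high and low in much the same libraries. Their log2 CPM correlated with Pearson r = 0.911 (exact permutation p = 0.00414, adjusted p = 0.0450 over the 21 pairs of these genes) and Spearman rho = 0.783 (exact permutation p = 0.0172, adjusted p = 0.0723). Without the 2 libraries farthest from the median of Dmp1 (library 2 of each bisphosphonate gel), r was 0.549, so the relation rests in large part on them. Within the groups, with these 2 libraries kept, r was 0.955. The other pair with an adjusted p of r under 0.05 was Sost with Pdpn, r = −0.762 (exact permutation p = 0.00428, adjusted p = 0.0450) and rho = −0.833 (exact permutation p = 0.00827, adjusted p = 0.0723). Without ALN gel libraries 1 and 3 its r was −0.845, and within the groups it was −0.493, so the pooled value also holds the difference between the gels. Among all 13836 protein-coding genes compared, Mepe ranked 5th in likeness to Dmp1. Above it came Prkrip1 (0.952), Afmid (0.922), the cartilage collagen gene Col11a2 (0.915) and Unc93a (0.913). None of these 4 belongs to the lists of osteocyte genes.

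Some osteoblast genes, though not the osteoblast list as a sum, were also lowest in Mg-ALN gel library 2. Bglap, which encodes osteocalcin, was 3.45 CPM there against 855 and 395 CPM in the other two libraries of the group, and 185 to 2295 CPM in Gel and ALN gel. Ibsp, bone sialoprotein, was 100 CPM there against 404 to 4191 CPM elsewhere. Col1a1, a type I collagen chain, was 30834 CPM in that library, between the 26548 and 33366 CPM of the other two, and Spp1 was 3206 CPM, above the 2659 CPM of Gel library 3. The summed osteoblast markers were 38650 CPM in it, above all 3 ALN gel libraries (25477 to 37517 CPM).

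Phex, the peptidase, and Lrp4, the sclerostin anchor, had lower mean levels with Mg-ALN than with plain gel. In this they were not alone, since all 7 genes had negative log2 differences for Mg-ALN gel against Gel. Over all tested genes, 47.7% were positive in that comparison. The count of 7 rests on Gel library 1, without which Sost (0.32), Dmp1 (0.29) and Mepe (0.36) were positive. Phex stood at 47.5, 8.58 and 7.08 CPM in Gel, 7.60, 1.38 and 7.47 CPM with ALN, and 1.81, 0.655 and 5.84 CPM with Mg-ALN. Every Mg-ALN gel library was below every Gel library, a separation in this direction that 8.56% of genes showed, and Gel library 1 was far above the other two. The log2 difference was −2.92 (SE 1.05), adjusted p = 0.530 by edgeR; without Gel library 1 it was −1.50. ALN gel differed from Gel by −1.94 (SE 1.01), or −0.52 without Gel library 1, and their libraries overlapped. Between the bisphosphonate gels it differed by −0.98 (SE 1.0), which was −2.16 without Mg-ALN gel library 3 and −0.47 without Mg-ALN gel library 2.

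Lrp4 was 174, 67.7 and 45.5 CPM in Gel, 137, 84.9 and 90.3 CPM with ALN, and 37.8, 32.4 and 56.3 CPM with Mg-ALN. All Mg-ALN gel libraries lay below all ALN gel libraries, and only Gel library 3 overlapped them. Against ALN gel the log2 difference was −1.30 (SE 0.48) and against Gel −1.18 (SE 0.48), with adjusted p = 0.50 and 0.53 by edgeR; the second was −0.43 without Gel library 1. ALN gel and Gel differed by 0.12 (SE 0.47), which became 0.87 without Gel library 1 and −0.25 without Gel library 3.

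**Figure D3:**
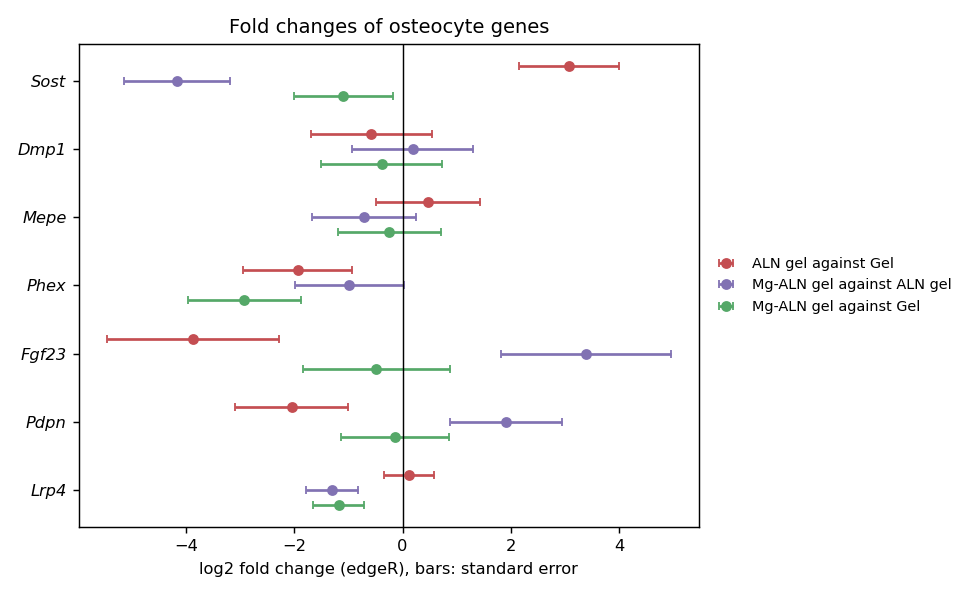
Log2 fold change (horizontal axis) of each osteocyte gene in the 3 comparisons of gels, from 1 edgeR fit over 9 libraries; bars are standard errors. Sost (3.08 and −4.17) and Fgf23 (−3.87 and 3.38) lie farthest from 0 in the comparisons with ALN gel, in opposite directions, and no gene passed after adjustment.

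Fgf23, the phosphate hormone, was close to its detection limit in ALN gel. It had 5, 122 and 12 counts in Gel, 2, 3 and 3 counts with ALN, and 0, 53 and 40 counts with Mg-ALN. As CPM these are 0.356, 6.88 and 0.752 in Gel, 0.155, 0.188 and 0.182 with ALN, and 0, 3.16 and 2.54 with Mg-ALN, where the 0 allows a level of up to 0.236 CPM (3 counts). ALN gel lay below every Gel library, and Mg-ALN gel overlapped both.

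The Fgf23 log2 differences were −3.87 (SE 1.59) for ALN gel against Gel and 3.38 (SE 1.57) for Mg-ALN gel relative to ALN gel, adjusted p = 0.583 and 0.553 by edgeR. Gel library 2 carried the first, which was −1.68 without it. Mg-ALN gel differed from Gel by −0.48 (SE 1.36), or 1.72 without Gel library 2. The pooled counts, 139 in Gel and 8 in ALN gel, gave a ratio of 16.5 (95% counting interval 8.14 to 38.9). That interval covers counting error only and not the spread between libraries, and Gel library 2 held 122 of the 139 counts. In Mg-ALN gel library 2, Fgf23 reached 716 counts per 1000 Dmp1 counts, against at most 54.4 in the other 8, over 74 Dmp1 counts.

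Pdpn, unlike Sost, had its lowest mean in ALN gel. Podoplanin was 23.6, 96.9 and 196 CPM in Gel, 1.32, 22.3 and 52.7 CPM with ALN, and 96.1, 97.4 and 93.1 CPM with Mg-ALN. The Mg-ALN gel libraries were nearly equal and all above ALN gel, while Gel spread across both. The log2 differences were −2.05 (SE 1.04) for ALN gel against Gel and 1.91 (SE 1.03) between Mg-ALN gel and ALN gel, adjusted p = 0.664 and 0.604 by edgeR. Without ALN gel library 3 they were −3.22 and 3.02, and the first was −1.33 without Gel library 3. Mg-ALN gel and Gel differed by −0.14 (SE 1.0), which became 0.62 without Gel library 3.

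ALN gel library 1 had the lowest Pdpn and also the highest mitochondrial share, 39.5%. With that share as a covariate the differences were −0.88 and 2.83, and without that library −1.49 and 1.35; the part of the share in the result was not tested beyond this. Prox1, which defines lymphatic endothelium, was at most 0.867 CPM in any library, and the summed lymphatic markers were 24.3 to 40.5 CPM in Gel, 32.5 to 63.3 CPM in ALN gel and 17.0 to 76.3 CPM in Mg-ALN gel.

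Counted over the 7 genes, ALN gel had 1 gene wholly above Gel (Sost) where 11.1% of all genes were so, and 1 wholly below (Fgf23) where 5.03% were so. Mg-ALN gel had 1 gene wholly above ALN gel (Pdpn, against 6.76% of genes) and 2 wholly below (Sost and Lrp4, against 9.77%). Against Gel it had 1 wholly below (Phex, against 8.56%). With 7 genes, these counts are few and describe the genes named. The median log2 difference of the 7 was −0.58, −0.71 and −0.48 in the 3 comparisons, beside −0.00, −0.04 and −0.03 for all tested genes.

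Within the groups, the log2 CPM of Sost followed that of Phex and Lrp4. Deviations from the group means correlated over the 9 libraries with r = 0.932 for Phex, 0.907 for Lrp4, 0.726 for Mepe, 0.722 for Dmp1, −0.203 for Fgf23 and −0.493 for Pdpn, given as descriptions. Over all libraries pooled, where the 3 ALN gel libraries stand apart, the genes most like Sost out of 13836 protein-coding genes included, with their r, Calcr (0.982), Klhl7 (0.969), Cited2 (0.960) and Rragd (0.951). Lrp4 ranked 294th in that list, Mepe 1461st, Phex 3747th, Dmp1 3908th, Fgf23 11434th and Pdpn 13495th.

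Calcr encodes the calcitonin receptor, a gene of osteoclasts. It was 24.2, 19.1 and 18.2 CPM with ALN, 6.98, 1.35 and 2.57 CPM in Gel, and 1.18, 0.477 and 2.99 CPM with Mg-ALN. Like Sost it was higher in all ALN gel libraries than in the other 6, and Gel library 1 was the highest of those 6 for both genes. Calcr had the highest r with Sost of all genes compared, so this shared order largely follows from that ranking and is no separate result. By edgeR its adjusted p was 0.528 and 0.454 in the comparisons of ALN gel with Gel and with Mg-ALN gel.

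**Figure D4:**
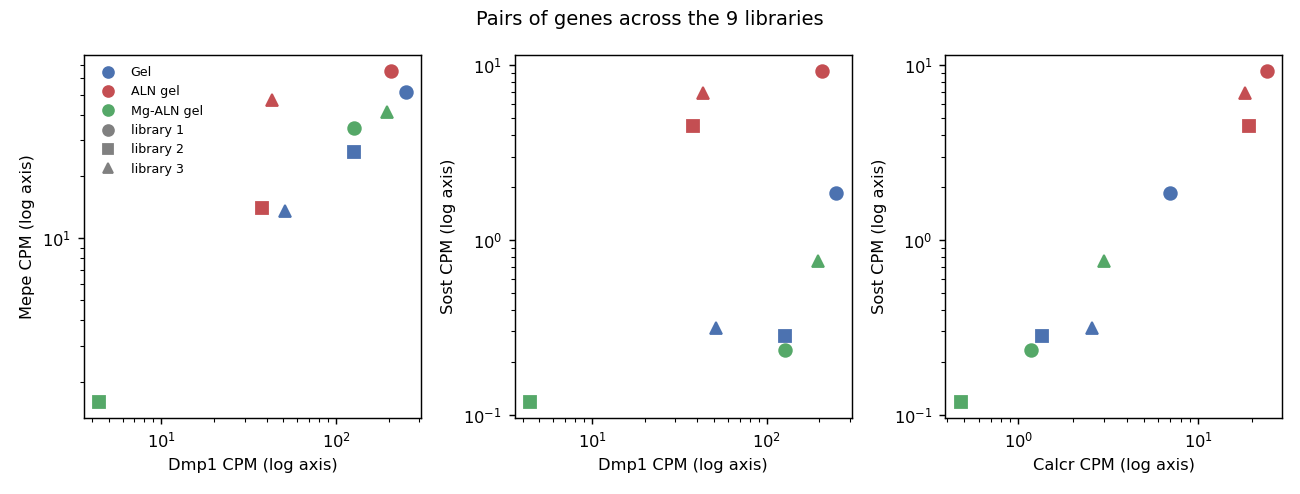
CPM on log axes of Mepe against Dmp1, Sost against Dmp1 and Sost against Calcr in 9 libraries; colours give the gel and symbols the library number. Mepe is high where Dmp1 is high, and the ALN gel libraries stand above the others in Sost at similar Dmp1. Sost and Calcr share the same high libraries, but Calcr is the gene with the highest r to Sost over these libraries.

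The osteoclast list as a sum was also highest in the ALN gel libraries. The 10 markers, Calcr among them, summed to 31083, 27140 and 21279 CPM with ALN, 17976, 4154 and 2158 CPM in Gel, and 3675, 10920 and 12242 CPM with Mg-ALN. Gene by gene, all ALN gel libraries were above the other 6 for Calcr, Ctsk, Mmp9, Atp6v0d2 and Tnfrsf11a, but not for Acp5, Ocstamp, Oscar or Itgb3, a split read after the values were seen. Of all tested genes, 3.51% showed this separation. Acp5, a bone-resorption phosphatase, was 5363 to 9823 CPM with ALN and 6394 CPM in Gel library 1. All 9 tested markers had positive log2 differences for ALN gel against Gel (median 1.56) and all 9 had negative ones for Mg-ALN relative to ALN gel (median −1.48), though none passed adjustment. Over all tested genes, 49.8% were positive in the first comparison and 46.4% in the second. Dcstamp, a fusion gene of osteoclasts, was at or near 0. Their part in the Sost result was not tested.

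The wider osteocyte and sclerostin lists gave no gene with an adjusted p under the threshold in any comparison. Over all tested genes, 49.8% were positive in ALN gel against Gel and 46.4% in Mg-ALN gel against ALN gel. These shares are the background for the lists below. Of 15 other osteocyte genes, 6 were positive and 9 negative in ALN gel against Gel, with a median of −0.06. Among them Fam20c, the kinase of secreted matrix proteins, was 110 to 437 CPM in ALN gel and 146 to 335 CPM in Gel, and Irx5, a transcription factor, was 44.1 CPM in Gel library 1 and 10.2 to 18.7 CPM in the other 8. Tnfsf11, which encodes RANKL, was at most 10.7 CPM and was 0.0776 to 2.38 CPM in ALN gel, against 0 to 10.7 CPM in Mg-ALN gel; its decoy receptor Tnfrsf11b was 5.74 to 14.5 CPM in ALN gel and 8.83 to 24.2 CPM in Gel.

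Of the phosphate and mineralization genes, 4 of 12 tested were positive and 8 negative in ALN gel against Gel (median −0.50). Galnt3, which protects Fgf23 from cleavage, was 8.81 to 13.4 CPM in ALN gel and 10.5 to 17.9 CPM in Gel. Furin, a protease of that cleavage, was 93.5 to 191 CPM in ALN gel and 184 to 290 CPM in Gel. The phosphate transporter Slc20a1 ranged from 75.9 to 171 CPM over all libraries. Of the acidic matrix protein family, 3 of 4 tested genes were positive and 1 negative in ALN gel against Gel (median 0.33). Among them Spp1, osteopontin, overlapped between the gels at 2659 to 8368 CPM over all libraries.

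The coreceptors that sclerostin blocks, Lrp5 and Lrp6, overlapped between the gels. Lrp5 was 26.9, 45.7 and 66.4 CPM in ALN gel against 107, 48.3 and 54.0 CPM in Gel, a log2 difference of −0.59. Lrp6 was 13.6, 25.7 and 35.4 CPM with ALN, 43.7, 31.2 and 45.5 CPM in Gel and 10.8, 23.4 and 35.3 CPM with Mg-ALN; ALN gel differed from Gel by −0.69, and neither gene passed. The Sost paralog Sostdc1 was at 0 or 1 count in every library, and the Wnt antagonist Dkk1 had no count in any, which allows up to 0.236 CPM in the library with the smallest scaled size. Of 7 tested secreted Wnt antagonists other than sclerostin, 6 were negative in ALN gel against Gel (median −0.46) and 5 positive for Mg-ALN relative to ALN gel (median 0.34).

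Of 8 tested Wnt target genes, 7 were negative in ALN gel against Gel, with a median of −0.94, while Axin2, the feedback inhibitor of Wnt signalling, was 0.28. Over all tested genes 49.8% were positive in this comparison. For Mg-ALN gel against Gel, 2 of the 8 were positive and 6 negative (median −0.54). For Mg-ALN relative to ALN gel, 3 were positive and 5 negative (median −0.07). The 10 matched genes summed to 168 CPM in Gel library 1, against 60.7 and 61.1 CPM in Gel libraries 2 and 3. Nkd1 and Lgr5 were instead lowest in Gel library 1 among the Gel libraries. The relation of the Wnt target genes to Sost was not tested. Axin2 was 2.17 to 6.68 CPM with ALN, 2.6 to 3.57 CPM in Gel and 2.14 to 4.65 CPM with Mg-ALN, so the groups overlapped.

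Of 10 known regulators of Sost that were tested, 9 were negative for Mg-ALN relative to ALN gel, with a median of −0.65. Over all tested genes 46.4% were positive in this comparison, with a median of −0.04. For ALN gel against Gel, 3 of the regulators were positive and 7 negative (median −0.25), beside 49.8% positive over all tested genes. For Mg-ALN gel against Gel all 10 were negative (median −0.96), beside 47.7% positive over all tested genes. Mef2c, a transcription factor of the Sost enhancer, was 65.9 to 127 CPM in ALN gel and 49.6 to 55 CPM in Mg-ALN gel, and Hdac5, which represses it, was 89.9 to 103 CPM and 61.0 to 70.6 CPM. In Gel, Mef2c was 42.7 to 159 CPM, which spans its ALN gel values, and Hdac5 was 64.7 to 89.7 CPM. The parathyroid hormone receptor Pth1r overlapped between gels, at 104 to 227 CPM in ALN gel and 38.4 to 137 CPM in Mg-ALN gel. Sik2, a kinase of the parathyroid hormone response that was singled out after its values were seen, was 97.6, 84.1 and 96.6 CPM with ALN, 57.9, 53.4 and 46.9 CPM in Gel, and 23.0, 45.3 and 51.6 CPM with Mg-ALN. Its log2 difference between Mg-ALN gel and ALN gel was −1.21, adjusted p = 0.496 by edgeR.

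Immediate early genes, which respond to handling of tissue, summed over 8 genes to 495, 746 and 1184 CPM with ALN, 736, 1786 and 1728 CPM in Gel, and 1682, 2044 and 1473 CPM with Mg-ALN. All 3 ALN gel sums were below those of Mg-ALN gel and overlapped those of Gel. Fos alone was 19.2, 32.9 and 211 CPM in ALN gel. Their part in the results for Sost and Pdpn was not tested. Among chondrocyte markers, Col2a1 was 0.298 to 0.953 CPM in Mg-ALN gel and 20.4 to 62.1 CPM in ALN gel, and was 0.113 CPM in Gel library 2 but 305 CPM in Gel library 3. Muscle actin Acta1 was 3314 CPM in Gel library 3 and at most 667 CPM elsewhere, and Musk, an Lrp4 partner at the muscle synapse, was at most 1.89 CPM. Summed endothelial markers were 402 to 575 CPM in Gel, 232 to 597 CPM with ALN and 444 to 804 CPM with Mg-ALN, and summed macrophage markers 932 to 1364, 1207 to 1748 and 769 to 1308 CPM.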

How the data were processed

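Poly-A RNA of 9 libraries, 3 per gel, was analysed; groups and replicate numbers came from the sample titles. The authors deposited whole-number read counts per gene, not normalized, and FPKM values, per the file headers. Tools listed in the submitters' processing notes, with no role, are featureCounts 1.5.0-p3, HISAT2 2.0.5, edgeR 3.22.5, DESeq2 1.20.0, StringTie 1.3.3b and fastp; the genome build is not given in the sources used here. The protocols do not mention strand.

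Counts were fitted in R 4.3.3 with edgeR 4.0.16 (filterByExpr, TMM, 1 quasi-likelihood fit of the 9 libraries with a coefficient per group), with limma 3.58.1 and DESeq2 1.42.0 as alternatives. Two-sided p-values were adjusted by Benjamini-Hochberg over the 15460 genes tested, with a threshold of 0.05, and edgeR's quasi-likelihood test with this adjustment is meant wherever an adjusted p is printed without another tool. CPM used TMM-scaled library sizes; log2 CPM had a prior count of 0.5. Standard errors are the log2 difference over the root of F. Counts of libraries of a group differed by far more than sampling noise (chi-square per degree of freedom at least 72.3), so all were kept as separate.

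Replicate numbers recur across gels. For Gel with ALN gel, deviations from group means correlated with r = 0.341, 0.419 and 0.226 for equal numbers, which the fit with a replicate block takes up; the labels give no source for the pairing. For Gel with Mg-ALN gel they were −0.0767, −0.0452 and −0.199, and for ALN gel with Mg-ALN gel 0.130, −0.120 and −0.127.

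The members, 16 gene lists (135 entries, 131 matched) and alternatives were chosen with earlier results of these data known. Named genes were the 7 members, the 5 genes most correlated with Sost and with Dmp1, list genes past the threshold and a fixed set of list genes. 1 of the genes most correlated with Sost is not reported here.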

Additional observations from a re-analysis of the deposited data

How the results depend on the processing

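The members' log2 differences kept their direction and their side of the threshold under most alternatives: outside the leave-one-out fits 163 values did so, 5 turned direction and 3 newly passed, and within them 174 did so and 15 turned. Genes called were 135, 178 and 51 with DESeq2 for ALN gel against Gel, for Mg-ALN gel against ALN gel and for Mg-ALN gel against Gel, and 263 and 2 in the first and second of these with limma-voom. With the mitochondrial share as a covariate 1 gene was called in Mg-ALN gel against ALN gel. Leaving out single libraries gave 0 to 1 genes for ALN gel against Gel, the 1 without ALN gel replicate 3. Sost passed with DESeq2 (3.06 and −4.17) and with limma-voom (3.83 for ALN gel against Gel); the cause was not tested. Its difference between Mg-ALN gel and Gel ranged from −2.16 to 0.32 when 1 library was left out, 0.32 without Gel library 1. Leaving out single libraries also turned Dmp1 (−1.82 to 0.10, −0.55 to 1.43 and −1.13 to 0.29 in the 3 comparisons), Lrp4 in ALN gel against Gel (−0.25 to 0.87), and in Mg-ALN gel against Gel Mepe (−0.76 to 0.36), Fgf23 (−1.12 to 1.72) and Pdpn (−0.62 to 0.62). With the mitochondrial share as a covariate, Lrp4 became −0.32 in ALN gel against Gel, and Fgf23 0.017 and Pdpn 1.95 in Mg-ALN gel against Gel, while Dmp1 was −1.90 in ALN gel against Gel and −1.48 with Mg-ALN. Dmp1 in Mg-ALN gel against ALN gel was −0.62 with limma-voom. With the replicate block, Pdpn in Mg-ALN gel was 0.65 against Gel and 2.94 against ALN gel, Fgf23 in ALN gel against Gel was −3.02, and Sost was 3.34, −4.24 and −0.90 in the 3 comparisons (3.47 with Gel and ALN gel only, adjusted p = 0.171); the block changed no call. The correlation of Phex with Fgf23 was −0.023 with a prior count of 2, from 0.036. Fits of only the groups compared gave no value for Fgf23 against ALN gel libraries or for Sost between Mg-ALN gel and Gel, which failed the filter there. Depth limits Sost and Fgf23, with 357 and 240 counts over all libraries.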
